A study of Mus musculus with 16 samples.

Results

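The genes described here encode the ionotropic and metabotropic glutamate receptors and the auxiliary proteins of the AMPA receptor. They were chosen by symbol: 31 of the 32285 genes listed in the matrices are members, 4 AMPA, 7 NMDA, 5 kainate, 1 delta and 7 metabotropic receptor genes with 7 auxiliary genes. Their levels were read in nuclei of the hippocampus of male mice in 16 libraries, 4 in each of 4 groups. C57BL/6 wild-type (WT) mice aged 2 months 23 days and *Ifnar1*-/- (KO) mice aged 3 months 3 days, bred without a working gene for a type I interferon receptor chain, received repeated intraperitoneal injections of vehicle or of DMXAA, an agonist of mouse STING. The comparisons ask how receptor genes are distributed over cell classes, whether DMXAA changes them and whether a change needs *Ifnar1*. Genotype coincided with age, so these cannot be told apart in a comparison of KO with WT libraries. The labels do not say that each library was a separate animal, and p-values measure the spread between libraries.

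Glutamate is the main excitatory transmitter of the hippocampus. AMPA receptors carry the fast current, NMDA receptors admit calcium when glutamate binds and the membrane is depolarised, and kainate receptors tune release and excitability. Metabotropic receptors signal through G proteins, and auxiliary proteins of the TARP, cornichon and Shisa families set how AMPA receptors traffic, open and close.

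The libraries held 7869 to 12457 barcodes and 66059561 to 93228638 unique molecular identifiers (UMIs). After filtering, 108878 nuclei remained, 5163 to 9237 per library, and the median nucleus of a library held 3931.5 to 5031.5 UMIs. Pairs of libraries shared 12 to 41 barcodes, at most 0.445% of the smaller library. Nuclei were clustered without the 31 members and named from marker genes, so the class names are rebuilt and mean nuclei like that class. The classes tested were excitatory neurons (EN, 44496 nuclei), inhibitory neurons (IN, 6809), astrocytes (14147), oligodendrocyte precursor cells (OPC, 3424), oligodendrocytes (18038) and microglia (4894), and within EN the dentate gyrus (DG, 17550), CA1 (6669) and CA3 (2205). Levels are given as CPM, UMIs of the gene per 1000000 UMIs of the class in that library. *Ifnar1* in EN lay at 15.49 to 17.1 CPM in WT vehicle libraries, at 11.7 to 17.0 in WT DMXAA libraries and at 7.30 to 10.2 in the 8 KO libraries, where transcripts of the targeted gene were therefore lower but present.

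WT DMXAA replicate 3 stood apart from the other WT libraries, in the members and beyond them. It had the interferon response of its group, with *Ddx60*, an interferon-stimulated helicase, at 8.56 CPM in EN against 7.54 to 24.0 in the other WT DMXAA libraries, 0.124 to 0.442 in WT vehicle libraries and 0.115 to 0.317 in KO libraries. Of the 23 members called between KO and WT vehicle libraries in EN, however, it lay nearer to the KO vehicle mean for 17, whereas the other WT DMXAA libraries did so for 4, 5 and 3. In DG the corresponding counts were 21 of 23 against 3, 2 and 1. The same count was not made over all genes, so these counts are no result about the members in particular. The profile of all genes by length, given below, also ran with the KO libraries. *Malat1*, a nuclear long non-coding RNA, was at 18998 CPM in EN of this library, 47749 to 88691 in the other WT libraries and 8607 to 23201 in KO libraries. Its glia also held more neuronal transcripts: 8 neuronal genes summed to 8919 CPM in its microglia, against 1327 to 1424 in the other WT DMXAA libraries and 1741 to 2497 in WT vehicle libraries. Results that rest on this library are given with and without it.

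The AMPA receptor genes differed in their distribution over neurons. *Gria1*, whose subunit is central to synaptic plasticity, was highest in CA1 (4859 ± 1265 CPM, SD over n = 16 libraries as in the values that follow unless stated) and in *Sst* interneurons (4856 ± 1614), and lay at 4092 ± 1067 in DG and 438 ± 149 in *Tshz2* cortical neurons. *Gria2*, whose edited subunit keeps calcium out of the channel, was highest in CA1 (1942 ± 542) and DG (1935 ± 493), which did not differ beyond their spread, and among neuron classes the remaining *Lhx6* interneurons had 801 ± 249. *Gria3* was highest in deep cortical neurons (1253 ± 90.3) and lowest among neurons in Cajal-Retzius cells (74.1 ± 58.2, n = 14). *Gria4*, a subunit with fast kinetics, had 2185 ± 239 in *Lhx6* interneurons, 1734 ± 253 in *Sst* interneurons, 1373 ± 247 (n = 14) in Cajal-Retzius cells and 1204 ± 213 in *Tshz2* cortical neurons, against 184 ± 37.2 in CA1 and 140 ± 20.2 in DG.

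Among NMDA receptor genes, *Grin1*, the subunit that every NMDA receptor needs, lay at 454 ± 71.0 CPM in CA1 and 439 ± 55.3 in DG. It was lower in interneurons, at 316 ± 54.4 in *Sst*, 308 ± 38.5 in *Adarb2* and 299 ± 46.5 in *Lhx6* interneurons. *Grin2a* and *Grin2b*, the glutamate-binding subunits of mature and early forebrain receptors, were both highest in CA1, at 5791 ± 1310 and 3180 ± 283. In *Lhx6* interneurons the levels were 493 ± 188 for *Grin2a* and 1629 ± 227 for *Grin2b*. *Grin2d* was an interneuron gene in these nuclei, with 59.8 ± 8.14 in *Adarb2* interneurons, 49.0 ± 11.9 in *Sst* interneurons and 7.46 ± 3.06 in EN. *Grin3a*, a glycine-binding subunit, was highest in *Sst* interneurons (902 ± 177), followed by OPC (658 ± 82.3), against 18.2 ± 14.2 in CA3. *Grin3b* was near 0 in every class, with 0.196 ± 0.146 in EN.

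The kainate receptor genes divided the hippocampal regions. *Grik4*, a high-affinity subunit, was highest in CA3 at 1731 ± 525 CPM, with 399 ± 127 in DG and 131 ± 46.7 in CA1. CA2, which had enough nuclei in 4 libraries alone and is left off the map of levels, held 1257 ± 523 (n = 4). *Grik5*, the other high-affinity subunit, was also highest in CA3 (204 ± 26.4) but varied less, with 80.8 ± 19.2 in *Lhx6* interneurons. *Grik1* was an interneuron gene, at 2477 ± 359 in *Sst* and 1857 ± 396 in *Adarb2* interneurons, against 9.21 ± 5.05 in CA1 and 7.502 ± 4.23 in DG. *Grik2*, the most widespread channel-forming kainate subunit, lay at 2585 ± 380 in *Adarb2* interneurons and 1890 ± 124 in DG. *Grik3*, another channel-forming subunit, was highest in deep cortical neurons (646 ± 194), present in DG (105 ± 36.3) and low in CA3 (8.92 ± 9.90) and CA1 (8.68 ± 5.64).

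Metabotropic receptor genes had some of the sharpest class patterns. *Grm5*, a Gq-coupled postsynaptic receptor, was highest in the subiculum (4342 ± 417, n = 15) and lay at 2860 ± 239 in CA1 and 1979 ± 94.2 in DG. *Grm2*, a presynaptic autoreceptor, was low throughout. It was highest in DG (33.3 ± 3.94 CPM) and *Tshz2* cortical neurons (28.8 ± 5.11), whose spreads over all libraries overlapped. In WT vehicle libraries both had a mean of 33.6. KO vehicle libraries had 35.7 ± 2.45 in DG and 28.5 ± 1.89 in *Tshz2* cortical neurons. With DMXAA the values were 31.9 ± 5.49 and 27.8 ± 7.19 in WT, and 31.9 ± 2.29 and 25.5 ± 2.19 in KO (n = 4 each). Over all libraries CA1 lay at 2.02 ± 0.867. *Grm4*, also presynaptic, was highest in *Tshz2* cortical neurons (90.4 ± 31.2) and lay at 1.56 ± 0.619 in DG. *Grm7*, a low-affinity presynaptic receptor, reached 3423 ± 418 (n = 13) in upper cortical neurons and 456 ± 96.1 in *Lhx6* interneurons. *Grm8* reached 1284 ± 282 (n = 15) in the subiculum and 58.2 ± 22.95 in CA1. *Grm6*, the receptor of retinal ON bipolar cells, had 5 UMIs in all nuclei.

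The auxiliary genes also marked regions. *Cacng8*, the TARP that is most abundant in hippocampus, was highest in CA1 (198 ± 25.1) and DG (179.6 ± 17.0). *Cacng2*, or stargazin, was highest in *Lhx6* interneurons (265 ± 77.5), and *Cacng3* in upper cortical neurons (406 ± 97.8, n = 13). Of the cornichons, *Cnih2* reached 29.7 ± 17.2 in CA1 and 23.01 ± 11.5 in DG, and *Cnih3* was highest in DG (171 ± 47.1) with 17.2 ± 7.98 in CA3. *Shisa6*, which limits AMPA receptor desensitisation, was highest in CA3 (1952 ± 747) and lay at 54.9 ± 22.8 (n = 13) in upper cortical neurons. *Shisa9*, or CKAMP44, was highest in DG (1068 ± 338), where it is known to shape short-term plasticity, and lay at 85.5 ± 50.8 in CA3.

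**Figure D1:**
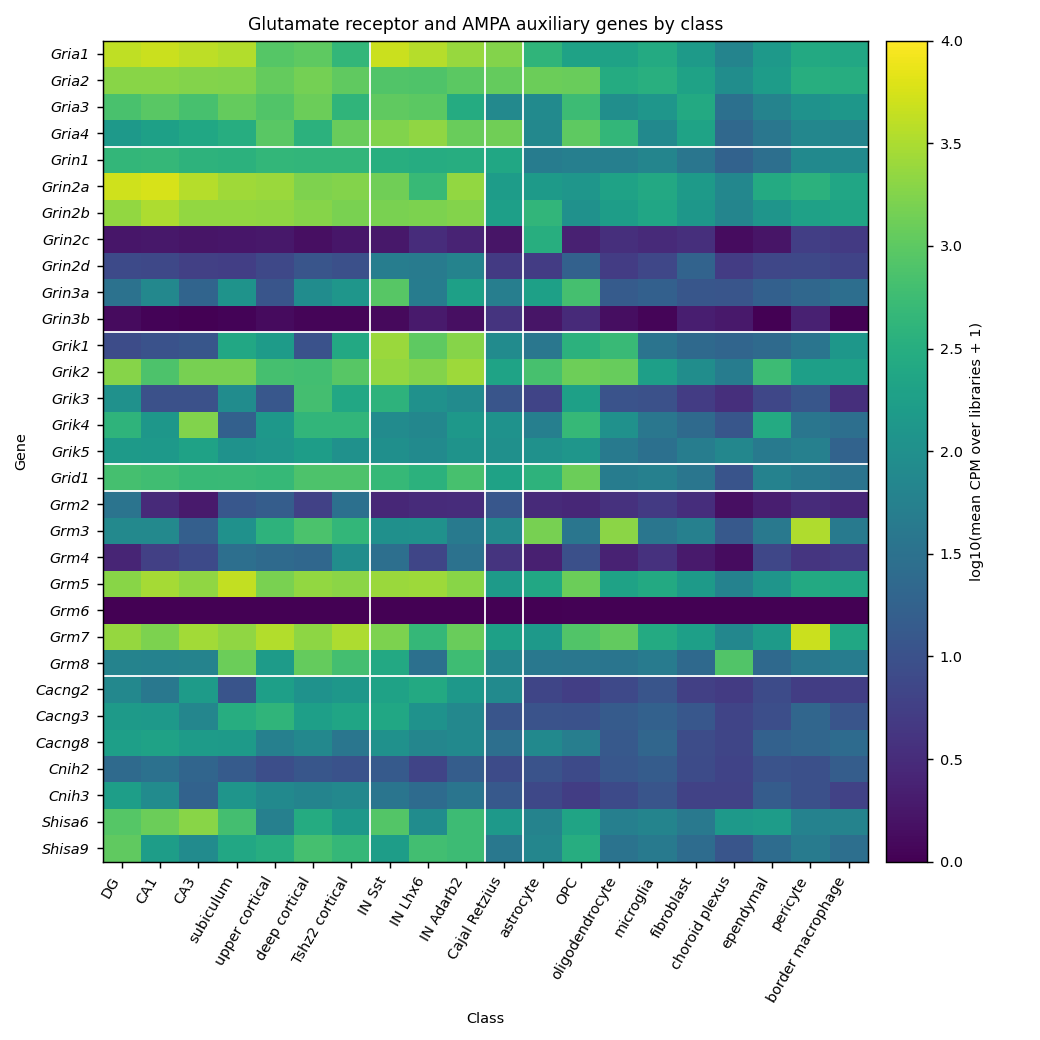
Levels of the 31 members (rows, grouped by family) in 20 classes of nuclei (columns), as the log10 of the mean CPM plus 1 over libraries. *Grik4* and *Shisa6* are highest in CA3, *Grik1* and *Grin3a* in *Sst* interneurons, *Grin2c* in astrocytes, and *Grm3* and *Grm7* in pericytes. Pericyte means are over 12 libraries, and the libraries left out were all WT.

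Levels of different genes were set side by side per kilobase (kb) of gene body, since reads from introns were counted. On that scale *Grin1* was highest in EN at 15.3 ± 2.06 CPM per kb, above *Gria2* (13.6 ± 3.41) in 13 of 16 libraries. These were 1 of 4 WT DMXAA libraries and 4 of 4 in each other group. *Gria2* was above *Gria1* (9.49 ± 3.01) in 4 of 4 WT vehicle, 3 of 4 WT DMXAA, 0 of 4 KO vehicle and 2 of 4 KO DMXAA libraries, so that their order turned between WT and KO vehicle libraries. *Gria1* was above *Grin2a* (9.07 ± 2.27) in 1 of 4 WT vehicle, 1 of 4 WT DMXAA, 4 of 4 KO vehicle and 3 of 4 KO DMXAA libraries. *Grin2a* was above *Cacng8* (5.36 ± 0.720) in all 16 libraries, and *Cacng8* above *Grin2b* (4.91 ± 0.520) in 9. The highest kainate, delta and metabotropic members were *Grik5* (2.32 ± 0.255), *Grid1* (0.867 ± 0.204) and *Grm5* (3.98 ± 0.275). Per kb of exon the order changed, and *Grin1* took rank 17 and *Gria1* rank 1.

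Several members were highest outside neurons or had a second site there. Because nuclei of glia carried free neuronal RNA, a level was set against 8 neuronal genes, which in astrocytes lay at a median of 6.30% and at most 15.8% of their EN level. Of the 31 members, 14 exceeded that maximum in astrocytes, 17 exceeded the one of OPC (44.7%), 12 that of oligodendrocytes (20.9%), 6 that of microglia (26.4%) and 9 that of pericytes (37.1%). As a share of the EN level, this measure is passed easily by members that are low in EN. The 6 in microglia were *Grin2c*, *Grin2d*, *Grin3a*, *Grin3b*, *Grik1* and *Cnih2*, at 0.196 to 59.0 CPM in EN. *Grm6* was among those of OPC. The counts alone therefore do not show expression beyond free RNA. *Grin2c*, an NMDA subunit with low magnesium block, was found at 324 ± 82.5 CPM in astrocytes and 0.726 ± 0.252 in EN, 71.2 times the next class, pericytes. A UMI of *Grin2c* was seen in 55.3% of astrocyte nuclei, 0.634% of EN, 0.582% of oligodendrocytes and 0.306% of microglia.

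*Grm3*, a Gi-coupled receptor, was highest in pericytes at 3361 ± 760 (n = 12), then oligodendrocytes at 2030 ± 321 and astrocytes at 1525 ± 278, with 36.3 ± 10.3 in OPC. *Grm7* was also highest in pericytes at 4836 ± 1581 (n = 12), and a UMI was seen in 95.4% of their nuclei against 30.4% of astrocyte nuclei and 99.6% of EN. Pericytes were few, 415 nuclei in all, and the libraries left out for too few nuclei were all WT. In the WT vehicle libraries used, pericyte *Grm7* lay on both sides of the mean of 2929 CPM in *Tshz2* cortical neurons of WT vehicle. Its rank thus holds over the libraries pooled and not within WT vehicle. *Grid1*, a delta receptor that organises synapses, was highest in OPC (1281 ± 276) and reached 47.4 ± 40.5 in oligodendrocytes. OPC also held *Gria4* (1021 ± 71.4), *Gria2* (1228 ± 301), *Grm5* (1261 ± 136), *Grik4* (486 ± 141) and *Grik1* (366 ± 110). Astrocytes held *Gria2* at 1262 ± 185.

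The balance of *Grin2a* to *Grin2b* was read as the ratio of their UMIs in each library, and differed between regions. In WT vehicle libraries it was 1.92 ± 0.11 in DG, 1.55 ± 0.06 in CA1, 1.35 ± 0.14 in CA3 and 0.28 in *Lhx6* interneurons (means, n = 4). KO vehicle libraries had 2.56 ± 0.09 in DG, 2.06 ± 0.08 in CA1 and 1.85 ± 0.05 in CA3. With DMXAA the ratio was 2.03 ± 0.28 in WT and 2.51 ± 0.10 in KO in DG. Of the WT DMXAA libraries, which ranged from 1.72 to 2.38 in DG, replicate 3 had the highest ratio. The ratio was a description and was not tested.

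**Figure D2:**
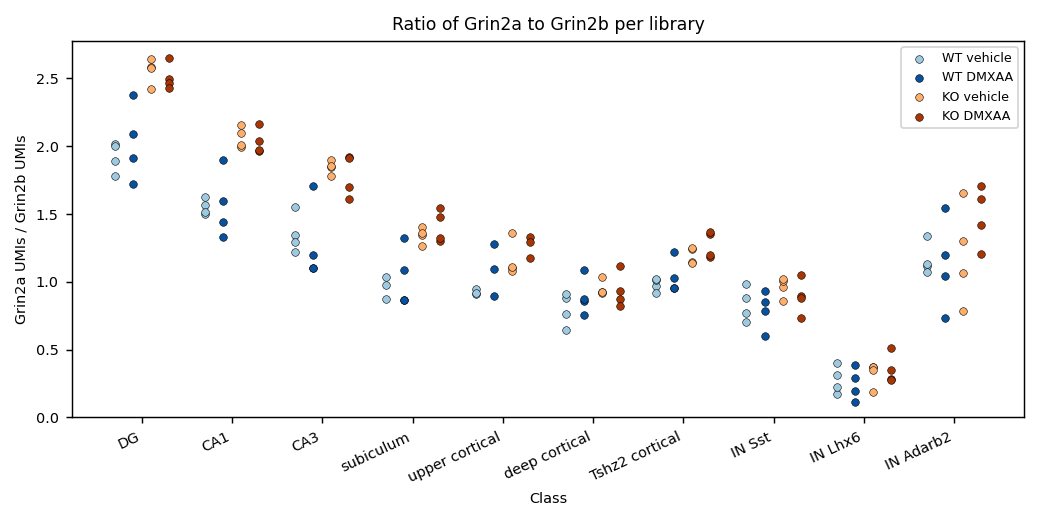
Ratio of *Grin2a* UMIs to *Grin2b* UMIs in each library (points, 3 or 4 per group) in 10 neuron classes. The ratio is above 1 in DG and CA1 in every library, below 1 in *Lhx6* interneurons, and higher in KO than in WT vehicle libraries in DG, CA1 and CA3.

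Between KO and WT vehicle libraries, many members were called higher in KO in neuron classes, fewer with library totals than with the scaling used here. A member was called where edgeR's quasi-likelihood test gave an adjusted p (Benjamini-Hochberg over all genes of the class) under 0.05 with a log2 fold change beyond 0.1 in either direction. In EN 22 of 29 members tested were higher and 1 lower, where 23.2% of all genes were higher and 25.9% lower. IN had 16 and 1 of 29 (all genes 18.7% and 20.4%), DG 20 and 3 of 28 (23.2% and 25.7%), CA1 22 and 2 of 28 (22.9% and 23.8%) and CA3 13 and 2 of 27 (16.4% and 15.7%). In glia fewer members were called: 5 higher and 2 lower of 27 in astrocytes (12.8% and 16.7%), 8 and 2 of 23 in OPC (12.5% and 11.7%), 4 and 1 of 26 in oligodendrocytes (12.8% and 16.8%), and 0 and 1 of 23 in microglia (6.37% and 6.12%). In microglia 6 higher members had an unadjusted p under 0.05, and DESeq2 called 1. The members' median log2 fold change was 0.74 in EN, 0.72 in IN, 0.50 in astrocytes, 0.41 in OPC, 0.57 in oligodendrocytes and 1.17 in microglia, against medians of all genes from -0.08 to -0.02. The 8 neuronal genes read as free RNA moved with the microglial median, at 2279 to 4290 CPM in KO vehicle against 1741 to 2497 in WT vehicle microglia, and their part was not tested. The makeup of EN also differed, with 42.3% ± 4.001 of EN nuclei in DG and 2.51% ± 0.92 in upper cortical clusters of KO vehicle libraries, against 36.0% ± 9.10 and 9.63% ± 7.61 of WT vehicle libraries (n = 4 each). By library these shares overlapped, and their part in the EN counts was not tested. Without WT DMXAA replicate 3, which enters through the shared estimate of spread, the higher and lower counts were 17 and 2 in astrocytes, 15 and 2 in oligodendrocytes and 15 and 1 in microglia. The shares called over all genes then rose as well, from 29.5% to 43.1% in astrocytes, from 29.6% to 46.5% in oligodendrocytes and from 12.5% to 30.6% in microglia.

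These fold changes are relative to the scaling factors of the fit (TMM), which move with how many genes differ. With library totals alone, an alternative added after the data were seen, the median of all genes in EN was -0.54 and not -0.08, and 13 members were higher and 4 lower, where 8.56% of all genes were higher and 55.5% lower. In DG 12 members were then higher and 6 lower, where the shares over all genes were 10.1% and 51.4%. Over the 6 classes 35 member and class pairs were then higher and 13 lower, against 55 and 8, and over the 3 regions 40 and 15, against 55 and 7. With library totals the shares of all genes called higher and lower were 8.23% and 41.1% in IN, 9.24% and 53.1% in CA1 and 7.48% and 33.9% in CA3. In glia they were 7.69% and 22.7% in astrocytes, 7.04% and 19.6% in OPC, 7.43% and 23.8% in oligodendrocytes and 4.35% and 8.63% in microglia. The 8 and 7 lower calls were in both fits, and 53 of the 55 higher calls in each set kept a positive change. The exceptions were *Gria3* and *Grm2* in EN, *Grm5* in DG and *Gria3* in CA1, whose change was negative with library totals. The CPM by library that follow are on the scale of library totals, so that a value in CPM moves less upward than the fitted fold change.

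*Gria1* in EN lay at 1903, 2790, 1883 and 1761 CPM in WT vehicle replicates 1 to 4 and at 3742, 4457, 3754 and 3988 in KO vehicle replicates. The WT DMXAA libraries had 1674, 2259, 3667 and 2210, and the KO DMXAA libraries 2959, 3868, 3309 and 4170. Every KO library was above every WT library but WT DMXAA replicate 3. The fitted change from WT to KO vehicle was 1.41 ± 0.28 (log2 fold change ± SE, as in the values that follow, adjusted p = 0.00169 by edgeR's quasi-likelihood test).

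*Gria2* took the other direction. Its EN levels were 1844, 2144, 1990 and 1884 CPM in WT vehicle, 2236, 2307, 1233 and 2024 in WT DMXAA, 1149, 1042, 1313 and 1317 in KO vehicle, and 1445, 1313, 1513 and 1586 in KO DMXAA libraries. KO and WT libraries again did not overlap, apart from WT DMXAA replicate 3, yet the fitted change in EN, -0.24 ± 0.12, missed the threshold (adjusted p = 0.114). It passed in 5 of 9 classes, with -0.32 ± 0.10 in astrocytes (adjusted p = 0.0211), -0.48 ± 0.14 in OPC (0.0153), -0.35 ± 0.12 in DG (0.0235), -0.39 ± 0.13 in CA1 (0.0239) and -0.45 ± 0.15 in CA3 (0.0303). With library totals it was called lower in 7 of 9 classes, EN (-0.71) and IN (-0.52) included. *Gria4* was called higher in DG (0.58 ± 0.19, adjusted p = 0.0212), CA1 (0.87 ± 0.21, 0.0034) and CA3 (0.66 ± 0.17, 0.00724), of which CA1 alone passed with library totals. In EN it did not pass, with 0.17 ± 0.24 (adjusted p = 0.565), and was at -0.30 with library totals. Its EN levels were 580.5, 278, 588 and 553 CPM in WT vehicle and 417, 359, 423 and 429 in KO vehicle libraries, which overlap.

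*Grin1*, the highest member per kb, was called in 0 of 9 classes by edgeR with TMM and by DESeq2, with 0 at an unadjusted p under 0.05 and changes from -0.18 to 0.29. Its EN level was 506, 509.96, 529 and 443 CPM in WT vehicle, 509.6, 425, 372 and 435 in WT DMXAA, 364, 359.6, 393 and 380.4 in KO vehicle, and 442, 368, 409 and 408 in KO DMXAA libraries. The KO vehicle libraries were all below the WT vehicle libraries on this scale, and with library totals *Grin1* was called lower in 5 of 9 classes, so the direction of *Grin1* depends on the scaling.

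*Grin2a* had 2740, 3466, 2710 and 2602 CPM in EN of WT vehicle, 2548, 3057, 4016 and 3078 of WT DMXAA, 4737, 5076, 4713 and 4906 of KO vehicle, and 4163, 4782, 4373 and 5092 of KO DMXAA libraries. All KO libraries were above all WT libraries. It was called higher in 6 of 9 classes, including OPC (1.69 ± 0.61, adjusted p = 0.0495), where neuronal RNA is also found, and in 4 of 9 with library totals, the calls in OPC and IN being lost. In astrocytes *Grin2b* (0.73 ± 0.26, adjusted p = 0.042), *Grin3a* (0.53 ± 0.16, 0.0211) and *Grin2c* (0.50 ± 0.18, 0.0424) were higher, and each missed the threshold with library totals. The 8 neuronal genes read as free RNA lay in astrocytes at 1360 to 2136 CPM in KO vehicle and 1223 to 1662 in WT vehicle libraries, and their part was not tested. *Grin2d* was lower in DG (-0.88 ± 0.34, adjusted p = 0.04), its only call by edgeR with TMM in 8 classes tested, where DESeq2 called it in 2 and library totals gave a lower call in 4, DG, EN, CA1 and CA3.

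The astrocyte level of *Grin2c* was 298, 279, 372 and 299.8 CPM in WT vehicle, 123, 208, 278 and 248 in WT DMXAA, 419, 361, 419 and 407 in KO vehicle, and 374, 361, 383 and 356 in KO DMXAA libraries. The 4 WT DMXAA libraries were the lowest of all 16, and the KO libraries lay above every WT library apart from WT vehicle replicate 3.

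Of the kainate genes, *Grik4* was higher in KO in 8 of 9 classes, with 1.44 ± 0.32 in EN (adjusted p = 0.0024), 1.06 ± 0.37 in astrocytes (0.0422), 1.11 ± 0.17 in OPC (0.00048), 0.88 ± 0.31 in oligodendrocytes (0.0448), 1.27 ± 0.27 in DG (0.00194) and 1.42 ± 0.32 in CA1 (0.00215). With library totals it was called in 6 of 9, and the calls in astrocytes and oligodendrocytes were lost. *Grik3* was higher in 6 of 8, with 1.28 ± 0.26 in IN (adjusted p = 0.00234), 1.04 ± 0.17 in OPC (0.000734), 1.41 ± 0.22 in DG (0.000693), 2.44 ± 0.57 in CA1 (0.0027) and 2.69 ± 0.76 in CA3 (0.0125). The CA3 call rested on 1 to 3 UMIs in each WT vehicle library, and KO vehicle libraries, at 1.503 to 14.9 CPM, overlapped those of WT vehicle, at 0.963 to 5.25. Subiculum markers summed to 12.3 to 63.7 CPM in CA3 of KO vehicle against 7.71 to 15.8 of WT vehicle libraries, and deep cortical markers, of the class where *Grik3* is highest, to 3551 to 4831 against 2203 to 2905, and their part was not tested. *Grik5*, at 134, 131, 149 and 139 CPM in EN of WT vehicle, 125, 109, 171 and 131 of WT DMXAA, 149, 159.8, 147 and 144 of KO vehicle and 157, 161, 162 and 148 of KO DMXAA libraries, overlapped between genotypes. With TMM it was called higher in EN (0.59 ± 0.17, adjusted p = 0.0112), DG (0.53 ± 0.15, 0.00949) and CA1 (0.60 ± 0.16, 0.00726), and all 3 calls were lost with library totals.

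*Grik1* differed in opposite directions along the oligodendrocyte lineage. In oligodendrocytes it lay at 202, 169, 236 and 112 CPM in WT vehicle and 243, 197, 269.5 and 176 in WT DMXAA libraries. The KO vehicle libraries had 920.4, 895, 818 and 819 and the KO DMXAA libraries 763, 833, 837 and 847, all above every WT library, WT DMXAA replicate 3 included. The fitted difference was 2.43 ± 0.19 (adjusted p = 7.73e-06), 1.71 above the median of genes of like length. In OPC, by contrast, *Grik1* had 584, 469.7, 487 and 464 CPM in WT vehicle, 395, 333, 414 and 508 in WT DMXAA, 311, 317, 264 and 236 in KO vehicle, and 209.5, 296, 261 and 312 in KO DMXAA libraries. There it was lower in KO (-0.64 ± 0.15, adjusted p = 0.00628), with no overlap between genotypes, and in CA1 it was higher (1.48 ± 0.51, adjusted p = 0.0247), a call that was lost with library totals. A UMI of *Grik1* was seen in 34.5% of oligodendrocyte nuclei and 5.39% of DG nuclei. *Grik1* (ENSMUSG00000022935) lies on chromosome 16 at 87895900 to 88290265 of GRCm38, the chromosome that also carries *Ifnar1*. *Grin2a* (9567898 to 9995560) and *Shisa9* (11984113 to 12270902), both called higher in KO, lie on chromosome 16 as well, but far from *Grik1*. Sharing the chromosome therefore does not place them alike, and the part of position was not tested.

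*Grid1* was called higher in 7 of 9 classes, among them astrocytes (0.83 ± 0.19, adjusted p = 0.00545) and OPC (0.82 ± 0.14, 0.000983). In OPC it lay at 1053, 1078, 1010.0 and 1030.3 CPM in WT vehicle, 997, 919, 1402 and 1017 in WT DMXAA, 1567, 1879, 1521 and 1492 in KO vehicle, and 1287, 1539, 1325 and 1380.0 in KO DMXAA libraries. In EN the levels were 536, 523, 514 and 524 in WT vehicle, 427, 476, 814 and 530.0 in WT DMXAA, 861, 905, 802 and 796 in KO vehicle, and 657, 777, 697 and 751 in KO DMXAA libraries. In both classes only WT DMXAA replicate 3 among WT libraries reached the KO range.

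Of the metabotropic genes, *Grm7* was called higher in 7 of 9 classes, *Grm5* and *Grm4* in 5 each and *Grm8* in 4, and with library totals *Grm7* kept a call in 6 classes, *Grm4* in 4 and *Grm8* in 3, while all 5 calls of *Grm5* were lost. *Grm5* had 2141, 2249.7, 1876 and 2167 CPM in EN of WT vehicle, 2020.2, 2249, 2147 and 2114 of WT DMXAA, 2113, 2081, 2285 and 2447 of KO vehicle, and 2112, 2304, 2273 and 2471 of KO DMXAA libraries, so that genotypes overlapped on this scale. Its named call was in OPC (0.41 ± 0.11, adjusted p = 0.00918). *Grm4* was higher in IN (1.68 ± 0.31, adjusted p = 0.00169), CA1 (1.86 ± 0.40, 0.00184) and CA3 (1.65 ± 0.47, 0.013). *Grm8* was higher in IN (1.32 ± 0.21, adjusted p = 0.00132 by edgeR's quasi-likelihood test) and CA3 (2.18 ± 0.34, 0.00084), and *Grm7* in OPC (0.49 ± 0.17, 0.0353), a call lost with library totals, and oligodendrocytes (0.95 ± 0.29, 0.0252). Subiculum markers, of the class where *Grm8* is highest, summed in CA3 to 12.3 to 63.7 CPM in KO vehicle against 7.71 to 15.8 in WT vehicle. Their part was not tested.

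*Grm3* in oligodendrocytes lay at 1805, 1534, 1811 and 1844 CPM in WT vehicle, 1490.5, 1647, 1982 and 1871 in WT DMXAA, 2231, 2180.3, 2271 and 2286 in KO vehicle, and 2369, 2504, 2312 and 2337 in KO DMXAA libraries. The KO libraries were above all WT libraries (KO vehicle against WT vehicle 0.52 ± 0.10, adjusted p = 0.00258). In pericytes, where the number of nuclei left out 4 WT libraries and no test was run, *Grm3* had 2477 and 2024 in WT vehicle replicates 3 and 4, 4545 and 2718 in WT DMXAA replicates 3 and 4, 4203, 4168, 3361 and 3695 in KO vehicle, and 3335, 2999, 3825 and 2979 in KO DMXAA libraries. Pericyte *Grm7* was 2732 and 2999.6 in those WT vehicle and 4391 and 2692 in those WT DMXAA libraries. KO vehicle libraries had 7217, 6808, 6564 and 5620.3 and KO DMXAA libraries 3627, 5026, 5195 and 5156.

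Among the auxiliary genes the most uniform difference was a lower level. *Cnih2*, which slows the closing of AMPA receptors, was lower in KO in all 8 classes tested, with -0.99 ± 0.26 in EN (adjusted p = 0.00656), -1.06 ± 0.33 in IN (0.0201), -1.36 ± 0.26 in astrocytes (0.00242), -1.40 ± 0.33 in oligodendrocytes (0.00633), -1.77 ± 0.44 in microglia (0.0167), -1.12 ± 0.25 in DG (0.00259), -1.16 ± 0.28 in CA1 (0.00317) and -1.20 ± 0.36 in CA3 (0.0158). In EN it lay at 17.0, 28.1, 30.1 and 29.5 CPM in WT vehicle, 26.6, 33.6, 8.45 and 32.7 in WT DMXAA, 8.50, 8.44, 10.1 and 10.98 in KO vehicle, and 13.1, 10.46, 14.2 and 15.9 in KO DMXAA libraries. WT DMXAA replicate 3 was again the WT library within the KO range. *Cnih2* is also the shortest of the 29 members tested in EN, 5.654 kb at chromosome 19, 5092868 to 5098521 of GRCm38. Short genes as a group were lower in EN of KO vehicle libraries, as given below. Set against genes of like length in EN, no member lay below -0.649, where *Cnih2* had -0.99 without that step. The part of length in this difference was not tested.

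Its paralog *Cnih3* was higher in EN (1.33 ± 0.23, adjusted p = 0.00116) and DG (1.24 ± 0.21, 0.000819), and *Cacng2* in DG (1.21 ± 0.18, 0.000636). *Shisa6* was higher in EN (1.54 ± 0.32, adjusted p = 0.00194), IN (1.31 ± 0.28, 0.00307), OPC (0.87 ± 0.21, 0.00586) and CA3 (1.46 ± 0.28, 0.00157). *Shisa9* was higher in EN (1.54 ± 0.24, adjusted p = 0.000918), IN (1.25 ± 0.29, 0.00451), OPC (0.72 ± 0.20, 0.0138), DG (1.33 ± 0.22, 0.000744), CA1 (2.07 ± 0.33, 0.000603) and CA3 (1.96 ± 0.43, 0.00341). In CA3 *Shisa9* lay at 31.6 to 199 CPM in KO vehicle libraries and overlapped WT vehicle libraries, at 22.3 to 49.0. DG markers, of the class where *Shisa9* is highest, summed in CA3 to 149 to 302 CPM against 109 to 197. Their part was not tested. In EN *Shisa9* had 401, 378, 394 and 414 CPM in WT vehicle, 347, 392, 676 and 433 in WT DMXAA, 915, 887, 758 and 761 in KO vehicle, and 674, 796, 789.7 and 782 in KO DMXAA libraries. *Cacng8*, the auxiliary gene highest per kb, had 108, 155, 106 and 126 in WT vehicle, 133, 159, 169 and 149 in WT DMXAA, 134, 139, 126 and 123 in KO vehicle, and 113, 128, 131 and 142 in KO DMXAA libraries, with overlap throughout. It was called higher in EN (0.54 ± 0.16, adjusted p = 0.0131), IN (0.43 ± 0.15, 0.0353) and DG (0.48 ± 0.12, 0.00512) with TMM. These calls were lost with library totals, where it was called lower in CA1 (-0.32).

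**Figure D3:**
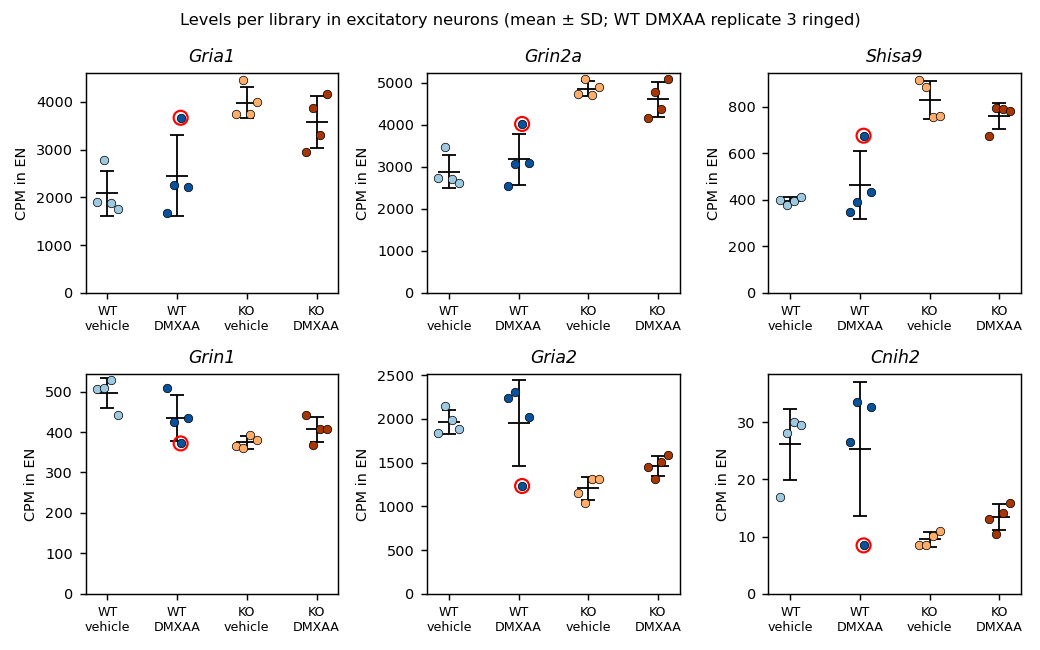
CPM of *Gria1*, *Grin2a*, *Shisa9*, *Grin1*, *Gria2* and *Cnih2* in EN for each of the 16 libraries by group (points), with mean ± SD (n = 4) and WT DMXAA replicate 3 ringed. *Gria1*, *Grin2a* and *Shisa9* are higher and *Gria2* and *Cnih2* lower in KO vehicle than in WT vehicle libraries, and the ringed library lies nearer to the KO libraries.

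Gene length moved with the genotype difference. In EN the median log2 fold change of all genes went from -0.90 in the decile of shortest gene bodies to 0.70 in the longest, and the share called higher from 5.48% to 71.9%. The members are long genes, with a median of 239.63 kb against 23.35 kb for all genes tested, and 17 of 29 lay in the longest decile. The members of that decile had a median of 0.77. Set against genes of like length in EN, 20 of 29 members were above the median of their own decile and 9 below, with a median excess of 0.35. *Shisa6* (0.84 above), *Shisa9* (0.84) and *Gria1* (0.71) stayed high, *Grm7* (0.04), *Grin2b* (0.07) and *Grin1* (0.08) were near it, and *Gria2* was 0.64 below and *Gria4* 0.53 below. In the other classes the members' median excess ranged from 0.11 in oligodendrocytes (14 above and 12 below) to 0.40 in microglia (19 and 4). It was 0.14 in astrocytes, 0.15 in OPC and 0.20 in CA3. The part of gene length in the members' difference was not tested.

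The same profile was seen in WT DMXAA replicate 3. Against the mean of WT vehicle libraries, its median log2 ratio in EN was -0.68 in the shortest and 0.19 in the longest decile, within the range of KO vehicle libraries in the shortest decile (-0.77 to -0.59). The other WT DMXAA libraries were at 0.07 to 0.15 and -0.11 to -0.06.

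**Figure D4:**
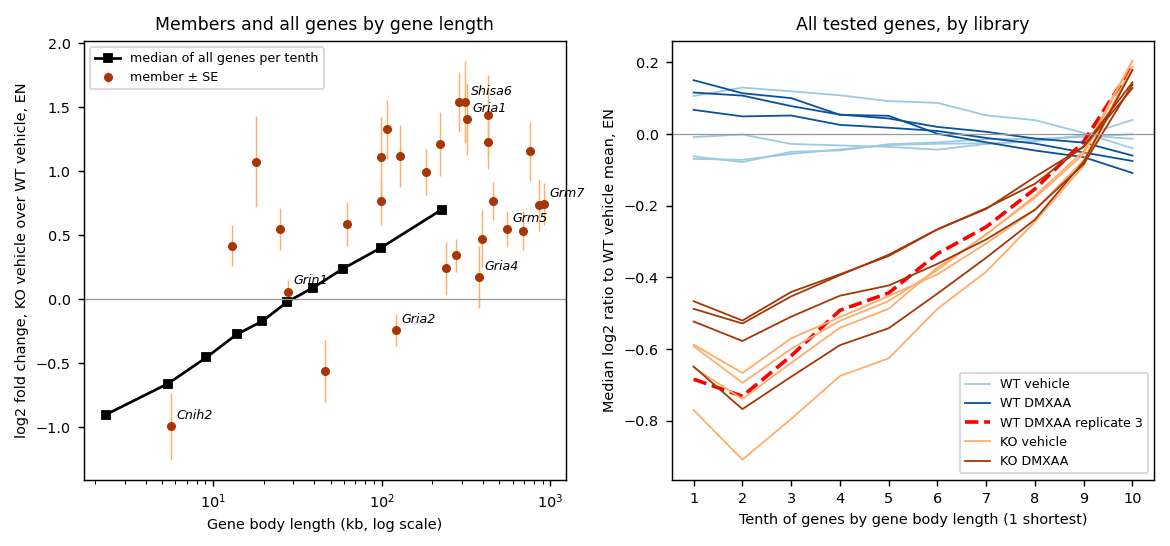
Left, log2 fold change of each member in EN between KO and WT vehicle libraries (points ± SE) against gene body length in kb on a log axis, with the median of all genes in each decile of length (line). Right, the median log2 ratio of each library to the WT vehicle mean by decile of gene length, where WT DMXAA replicate 3 (dashed) runs with the KO libraries.

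In the fit of all libraries, few members were called with DMXAA in WT mice. More were called without WT DMXAA replicate 3, as given below. In EN, IN, astrocytes, OPC, oligodendrocytes and microglia, 0 of 157 member and class pairs were called by edgeR, where 15 had an unadjusted p under 0.05 and DESeq2 called 1. Over all genes the shares called were 0.119% in EN, 0% in IN, 0.24% in astrocytes, 0.207% in OPC, 0.0166% in oligodendrocytes and 1.98% in microglia. In the regions 1 of 83 pairs was called, 15 had an unadjusted p under 0.05 and DESeq2 called 4. The shares over all genes were 0.131% in DG, 0.0464% in CA1 and 0.929% in CA3. Of the interferon-stimulated genes listed as a check, 6 of 11 tested rose in EN, 8 of 10 in astrocytes, 5 of 7 in OPC, 1 of 5 in oligodendrocytes, 9 of 9 in microglia, 4 of 7 in DG, 3 of 5 in CA1 and 2 of 3 in CA3. In IN edgeR called 0 of 5, with 2 at an unadjusted p under 0.05, so a response to DMXAA was not shown there.

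The called member was *Grik3* in CA3, which rose with DMXAA in WT (3.33 ± 0.72, adjusted p = 0.0344). Its UMIs were few, 1, 2, 3 and 1 in WT vehicle and 27, 22, 43 and 30 in WT DMXAA libraries. These corresponded to 0.963, 0.971, 5.25 and 1.17 CPM and to 15.7, 10.8, 10.9 and 40.6 CPM, with no overlap. KO vehicle libraries had 1.503, 3.45, 10.8 and 14.9 CPM and KO DMXAA libraries 1.31, 3.80, 8.80 and 11.7 CPM, which overlapped. The call was lost without any of the WT vehicle replicates 1 to 4 (adjusted p = 0.137, 0.106, 0.0638 and 0.126) or without WT DMXAA replicate 4 (0.0793). Markers of neighbouring neurons moved with it in CA3: 6 subiculum markers summed to 7.71 to 15.8 CPM in WT vehicle and 33.3 to 100.03 in WT DMXAA libraries, 5 markers of *Tshz2* cortical neurons to 14.0 to 30.1 and 49.9 to 105, and 9 DG markers to 109 to 197 and 231 to 334, and 8 markers of *Adarb2* interneurons to 136 to 152 and 172 to 262. All 4 sums were higher in each WT DMXAA library than in any WT vehicle library. Sums of the other marker lists overlapped between these groups. Markers of deep cortical neurons, where *Grik3* is highest, lay at 2203 to 2905 CPM in WT vehicle and 1978 to 2817 in WT DMXAA. *Sst* interneuron markers tended lower, at 52.0 to 84.0 and 32.8 to 56.5. CA1, CA2, mossy, upper cortical, *Lhx6* and general inhibitory sums overlapped as well. The part of these markers in the result was not tested.

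In the other classes the member with the lowest p in WT did not pass. These were *Cacng8* in EN (0.41 ± 0.16, adjusted p = 1) and DG (0.36 ± 0.12, 0.908), *Grm8* in IN (0.55 ± 0.21, 1), *Grik4* in astrocytes (1.01 ± 0.38, 0.625) and *Grm5* in OPC (0.41 ± 0.11, 0.258). *Grik1* in oligodendrocytes (0.44 ± 0.18, 0.803), *Shisa6* in microglia (2.02 ± 0.84, 0.377) and *Shisa9* in CA1 (1.02 ± 0.32, 0.762) did not pass either. *Gria4* in EN had -0.27 ± 0.24 (adjusted p = 1), with 475, 306, 432 and 326 CPM in WT DMXAA libraries, within the range of the WT vehicle libraries.

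The members' median change with DMXAA in WT changed sign when replicate 3 was left out. With it the medians were 0.11 in EN, 0.15 in IN, 0.23 in astrocytes, 0.15 in OPC, 0.37 in oligodendrocytes, 0.79 in microglia, 0.18 in DG, 0.18 in CA1 and 0.05 in CA3. Without it they were -0.09, -0.06, -0.21, -0.13, -0.52, -0.69, -0.10, -0.07 and -0.17 in the same order. In microglia 22 of 23 members had a positive change with it and 1 of 23 without it.

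Without replicate 3 more members passed, and most of them were lower with DMXAA. In astrocytes *Grin1* (-0.70 ± 0.14, adjusted p = 0.0106), *Gria3* (-0.71 ± 0.16, 0.0326), *Grm7* (-0.94 ± 0.22, 0.0326) and *Grin2c* (-0.62 ± 0.15, 0.0442) fell, where 1.23% of all genes were called. In oligodendrocytes *Grin1* (-0.73, adjusted p = 0.0101) and *Grm5* (-0.80, 0.0202) fell (2.58% of all genes), and in microglia 10 members fell, with changes from -0.54 to -1.42 (7.49%). The 8 neuronal genes read as free RNA were lower in the same libraries, at 1327 to 1424 CPM in microglia of WT DMXAA replicates 1, 2 and 4 against 1741 to 2497 in WT vehicle libraries. In astrocytes the ranges were 806 to 929 against 1223 to 1662, in oligodendrocytes 1080.2 to 1261 against 1531 to 2111, and the part of this RNA was not tested. In CA3 *Grik3* (3.42 ± 0.70, adjusted p = 0.00348) and *Grik1* (1.85 ± 0.50, 0.0229) rose and 7 members fell, among them *Grin1* (-0.49) and *Cacng3* (-1.02), where 6.34% of all genes were called. *Grik1*, highest in *Sst* interneurons, had 1 to 10 UMIs in CA3 of WT vehicle libraries. The subiculum, *Tshz2* cortical, DG and *Adarb2* markers given above were higher in CA3 of these WT DMXAA libraries. *Sst* markers were lower there, at 32.8 to 36.5 CPM against 52.0 to 84.0 in WT vehicle libraries. Sums of *Lhx6* and general inhibitory markers overlapped. The part of these markers was not tested. All calls of this fit were in these 4 classes.

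In KO mice DMXAA called 0 members by edgeR in any class, where 2 of 157 pairs over the 6 classes and 2 of 83 over the regions had an unadjusted p under 0.05 and DESeq2 called 0 in each. Over all genes 0% were called in each of the 9 classes. The lowest p was that of *Cnih3* in EN (-0.35 ± 0.23, adjusted p = 0.786), *Gria2* in DG (0.21 ± 0.12, 0.779), *Cacng3* in CA1 (-0.29 ± 0.18, 0.77), *Grm8* in CA3 (-0.78 ± 0.30, 0.95) and *Cnih2* in microglia (0.97 ± 0.49, 0.895). In IN (-0.43 ± 0.26, adjusted p = 0.818), astrocytes (-1.08 ± 0.45, 0.87), OPC (-0.34 ± 0.17, 0.874) and oligodendrocytes (-0.59 ± 0.38, 0.947) it was that of *Grik3*. *Gria4* in EN had -0.15 ± 0.24 (adjusted p = 0.863), with 513, 396, 389 and 269 CPM. The members' median change ranged from -0.65 in microglia to -0.10 in DG. The 8 neuronal genes read as free RNA moved with the microglial median, at 2279 to 4290 CPM in KO vehicle and 1906 to 2564 in KO DMXAA microglia, and their part was not tested. Without WT DMXAA replicate 3, this contrast called 4 of 23 members lower in microglia, *Grm8*, *Grm7*, *Grm5* and *Gria1* (1.33% of all genes called), and 1 of 27 lower in astrocytes, *Grm7* (0.39%). In astrocytes the neuronal genes lay at 1360 to 2136 CPM in KO vehicle and 961 to 1491 in KO DMXAA libraries, and their part was not tested.

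The interaction, the DMXAA effect in WT minus that in KO, was called for 0 of 157 and 0 of 83 pairs by edgeR, where 25 and 14 had an unadjusted p under 0.05 and DESeq2 called 0 and 2. Over all genes 0.0283% were called in EN, 0% in IN, 0% in astrocytes, 0.0517% in OPC, 0% in oligodendrocytes, 0.213% in microglia, 0.0207% in DG, 0.00773% in CA1 and 0.0182% in CA3. *Cacng8* had the lowest p in EN (0.53 ± 0.23, adjusted p = 0.728), IN (0.57 ± 0.22, 0.804) and DG (0.52 ± 0.17, 0.691). *Grm8* did in CA3 (1.98 ± 0.45, adjusted p = 0.104), *Shisa9* in CA1 (1.29 ± 0.44, 0.704), *Grm5* in OPC (0.48 ± 0.15, 0.565) and *Grik4* in astrocytes (1.40 ± 0.52, 0.664). *Shisa6* did in oligodendrocytes (2.62 ± 1.15, adjusted p = 0.783) and microglia (3.16 ± 1.17, 0.478), and *Gria4* in EN had -0.11 ± 0.34 (adjusted p = 0.927). The members' median in EN was 0.20, and 0.03 without WT DMXAA replicate 3, and in microglia it was 1.43 and -0.16. Without that library 2 of 27 members were called in CA3, both positive, where 0.893% of all genes were called. These were the only member calls for the interaction in that fit.

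**Figure D5:**
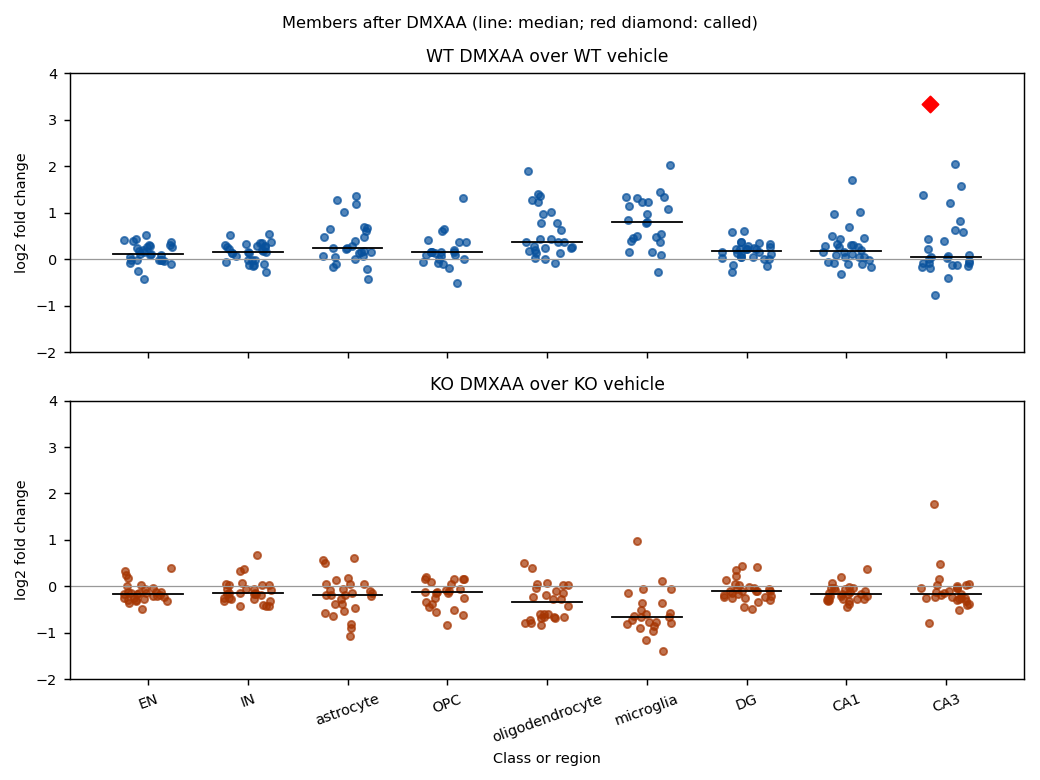
Log2 fold change of each member with DMXAA against vehicle in WT and in KO libraries (points) for the 9 classes, with the members' median (line) and the called member marked by a diamond. The only diamond is *Grik3* in CA3 of WT mice at 3.33, and the medians in microglia lie at 0.79 in WT and -0.65 in KO. Without WT DMXAA replicate 3 these microglial medians were -0.69 in WT and -0.66 in KO.

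Genes that work beside the receptors were counted from the same fit. The 19 postsynaptic scaffold genes, 9 genes of glutamate transport and metabolism and 14 other auxiliary genes had 0 calls by edgeR in the fit of all libraries with DMXAA in WT, with DMXAA in KO or for the interaction in any class, with 8, 5 and 16 of 328 gene and class pairs at an unadjusted p under 0.05. Between KO and WT vehicle libraries, 13 of 19 scaffold genes were higher and 1 lower in EN, 14 and 1 of 18 in IN, 14 and 1 of 18 in DG, 14 and 0 of 19 in CA1, and 7 and 0 of 18 in CA3. In glia the scaffold counts were 3 and 0 of 18 in astrocytes, 7 and 0 of 17 in OPC, 1 and 2 of 18 in oligodendrocytes, and 1 and 0 of 16 in microglia. Of the transport genes 3 were higher and 1 lower of 9 in EN, 2 and 0 of 9 in IN, 2 and 0 of 7 in DG, 2 and 1 of 8 in CA1, and 1 and 0 of 7 in CA3. Of the other auxiliary genes 5 of 14 were higher and 0 lower in EN, and 2 were higher and 3 lower of 11 in astrocytes. Of all genes 23.2% were higher and 25.9% lower in EN, 18.7% and 20.4% in IN, 23.2% and 25.7% in DG, with the shares of the other classes as above, so the transport counts are no result about that list. With library totals, where the shares of all genes were 8.56% and 55.5% in EN, 8.23% and 41.1% in IN, 10.1% and 51.4% in DG, 9.24% and 53.1% in CA1 and 7.48% and 33.9% in CA3, the scaffold counts were 6 and 2 in EN, 7 and 1 in IN, 8 and 2 in DG, 7 and 3 in CA1 and 7 and 2 in CA3, the transport counts 0 and 4 in EN, and the other auxiliary counts 2 and 7 in EN.

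The promoters were searched for the core of the interferon-stimulated response element, written as GAAA, any 2 bases and GAAA again, on either strand, in RefSeq windows from 250 bases before to 50 after each gene start (GRCm38.p6). Of 32851 promoters 1131 held it (3.44%). Of the members 20 of 31 had a promoter in that table, 23 promoters in all, and 1 of these held a match, that of *Grm8*. Of the interferon-stimulated genes that were listed as a check, 6 of 9 with a promoter held it. The *Grm8* match and those of *Ddx60* and *Ifit1*, the latter pair interferon-stimulated genes, are shown 5′ to 3′ on the strand of the gene, with the match in capitals. They lie at chr6:28126613-28126642 (minus strand, 206 bases before a RefSeq start that lies inside the *Grm8* gene body, chromosome 6 at 27275119 to 28135178, and not before the gene's outermost start), chr8:61928024-61928053 (plus strand, 53 before *Ddx60*) and chr19:34640775-34640804 (plus strand, 104 before *Ifit1*).
*Grm8*: ggctgctactTTTCTGTTTCtcctgctctc
*Ddx60*: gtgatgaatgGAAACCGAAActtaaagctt
*Ifit1*: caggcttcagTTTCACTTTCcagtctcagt
A match is a description of these letters. With all libraries *Grm8* was not called with DMXAA in WT in any class. Without WT DMXAA replicate 3 it was among the members called lower in microglia (-1.34 ± 0.36, adjusted p = 0.0197 by edgeR's quasi-likelihood test). In that fit *Grm8* was also called lower with DMXAA in microglia of KO mice, which lack the receptor chain. Its microglial level was 12.6% of its EN level. The 8 neuronal genes read as free RNA lay there at a median of 11.1% and at most 26.4%, and their part was not tested.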

How the data were processed

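The authors prepared 3′ single-nucleus libraries (10x Genomics) and deposited raw UMI counts for each gene and barcode, counting pre-mRNA on mm10. Per the file headers the counts came from Cell Ranger 6.1.2, whereas the processing notes name 3.1.0 with Seurat 3.0. Nuclei were kept at 200 to 4000 genes and at most 5% mitochondrial UMIs, and simulated doublets (0.8% per 1000 barcodes) were removed. The limit of 4000 genes removed 10.45% to 24.02% of the barcodes of a library. Clustering used 2000 variable genes without the members, 30 principal components, 20 neighbours and Leiden resolution 0.5 (leidenalg 0.10.2, Python 3.11.15). A cluster of 9743 nuclei with few UMIs stayed unnamed. UMIs of a class were summed in each library with at least 20 nuclei of it (18662259 to 36199293 UMIs in EN, 375606 to 992870 in microglia, 571192 to 3928774 in CA3). All genes that passed filterByExpr were fitted with edgeR 4.0.16 (R 4.3.3) over 16 libraries and 4 groups, with TMM factors and the two-sided quasi-likelihood F test. Benjamini-Hochberg adjustment ran over the genes of a class and contrast. The SE is the absolute log2 fold change over the square root of F. The filter left 23 to 29 members per class, and *Grin3b* and *Grm6* passed in none. The fit was tested on simulated data. DESeq2 1.42.0 was an alternative. Members called in a class and contrast were named (the 5 largest rises and falls where over 10), otherwise the member with the lowest p, with *Gria4* in EN. Values by library are given for the highest member per kb of each family in EN and for members highest outside neurons, and those of *Gria1*, *Grin2a*, *Gria4*, *Grid1*, *Cnih2*, *Shisa9* and *Grik1* were added. Gene lengths are gene bodies on GRCm38. The members and lists were chosen with earlier results of these data known.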

Additional observations from a re-analysis of the deposited data

Results flagged for a closer look

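Of the groups of 4 libraries whose values are printed, 68 were checked for outliers. In 11 of the 68, a library lay far from the other 3, its gap to the nearest, divided by the range, being above Dixon's critical value. Chance gives about 1 in 20 groups. WT vehicle replicate 2 was that library for 4 of them: *Gria1* in EN at 2790 CPM (nearest other 1903), *Grin2a* in EN at 3466 (2740), *Gria4* in EN at 278 (553) and *Grm3* in oligodendrocytes at 1534 (1805). Its EN nuclei also differed in makeup, with 48.3% in DG, 20.1% in CA1 and 0.06% in upper cortical clusters, against 26.6% to 35.9%, 10.997% to 13.6% and 9.10% to 18.6% in the other WT vehicle libraries, and the part of this makeup was not tested.

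*Cnih2* in EN had 17.0 CPM in WT vehicle replicate 1 (nearest other 28.1). *Grik3* in CA3 had 5.25 CPM in WT vehicle replicate 3 (1.17) and 40.6 in WT DMXAA replicate 4 (15.7). Among KO libraries, *Gria4* in EN had 359 CPM in KO vehicle replicate 2 (417), and KO DMXAA replicate 1 had 3627 CPM of *Grm7* in pericytes (5026), 763 of *Grik1* in oligodendrocytes (833) and 674 of *Shisa9* in EN (782).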

How the results depend on the processing

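With WT DMXAA against WT vehicle, the count of member calls over the 6 classes was 0, and it was 2 with no filter on low counts and 1 with DESeq2. Over the 3 regions it was 1, and it was 6 with no filter, 4 with DESeq2 and 2 with library totals. For KO DMXAA over the 6 classes it was 0, and 1 with no filter. The interaction had 0 over the 6 classes and 3 with no filter, and 0 over the regions, 5 with no filter and 2 with DESeq2. Leaving out each library in turn gave 0 to 16 and 0 to 9 calls for WT DMXAA, 0 to 5 and 0 for KO DMXAA, 0 and 0 to 2 for the interaction, and 48 to 115 (63 with all libraries) and 52 to 71 (62) for KO against WT vehicle. The highest count of KO against WT vehicle over the 6 classes came without WT DMXAA replicate 3. The sign turned for *Shisa6* in microglia with DMXAA in WT when WT DMXAA replicate 3 was left out (leaving out 1 library, -0.46 to 2.38) and for *Gria4* in EN. Leaving out 1 library, the interaction of *Gria4* ranged from -0.31 to 0.022 and its KO against WT difference from -0.023 to 0.26. That difference was -0.30 with library totals and -0.53 against genes of like length, both added after the data were seen. The causes were not tested. RLE size factors and a minimum of 1000 UMIs per nucleus left each of these 8 counts within 1.5 times its value. No paired analysis was possible because replicate numbers were given in accession order and pair no libraries. Depth limits *Grik3* in CA3, at 1 to 3 UMIs in WT vehicle libraries, and *Grin3b* and *Grm6*.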
